A study of Mus musculus with 39 samples.

Results

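The response of the spleen to 2 hours of reduced oxygen was taken from 16 of the 39 arrays of a study of B6C3F1 mice, the first-generation cross of C57BL/6 with C3H. The spleen arrays were chosen by their sample titles, 8 from mice kept under reduced oxygen for 2 hours and 8 from mice given the control treatment for 2 hours. The other 23 arrays held liver (8 reduced oxygen, 8 control) and bone marrow (4 reduced oxygen, 3 control) at the same time point. The titles call the control "vehicle" and name no substance, and the labels state no oxygen level, age or genetic change. All groups shared the same ending, cervical dislocation under ketamine and acepromazine anesthesia, and total RNA of a part of a spleen cross-section was hybridised, 1 array per sample. Nothing in the labels says that the 8 samples of a group came from 8 animals, so the p-values below measure the spread between samples, which may be partly technical.

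The mouse spleen filters blood through its red pulp, where macrophages clear old red cells and red cell precursors are also made, and holds B and T lymphocytes in its white pulp. When oxygen falls, the prolyl hydroxylases that mark the alpha subunits of the hypoxia-inducible factors (HIF) for destruction slow down, and HIF switches on genes of glucose use, blood vessel tone and mitochondrial clearance. Low oxygen is also a whole-body stressor that can release adrenal glucocorticoids, whose receptor switches on genes in lymphoid tissue within hours.

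Each gene was represented by 1 probe set, the one with the highest mean over the 16 spleen arrays among those named by exactly 1 symbol, and 12735 of 18193 genes were bright enough to be tested. Levels below are log2 intensities of that probe set, and a change is the log2 level under reduced oxygen minus that in controls. The 16 arrays had medians of 6.16 to 6.20 and pairwise correlations of 0.893 to 0.994, and no pair held identical values. Defining markers of spleen cells were present in every array. The B cell receptor subunit gene Cd79a stood at 10.88 to 12.71 in reduced oxygen spleens and at 12.01 to 12.92 in control spleens, and the red cell heme synthesis gene Alas2 stood at 12.57 to 13.86 in reduced oxygen spleens and at 12.40 to 14.03 in control spleens. The hepatocyte gene Alb stayed at 4.71 to 6.38 in reduced oxygen spleens and at 5.16 to 6.08 in control spleens.

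A few arrays stood apart. Pancreatic acinar markers, digestive enzyme genes of the organ that touches the spleen, averaged 10.35 in reduced oxygen array 2 and 12.81 in control array 5, against 5.12 to 5.45 in the other 14 arrays. Reduced oxygen array 4 had the lowest B cell and T cell marker means of its group, 9.26 and 7.62, where the other 7 ranged from 10.50 to 11.02 and from 8.62 to 9.22. Control arrays 6, 7 and 8 had erythroid marker means of 10.08, 8.79 and 9.47, below all other arrays. The number of genes called was 2344 without the arrays with pancreatic markers and 2547 without reduced oxygen array 4.

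Reduced oxygen changed 2469 of 12735 genes tested (19.4%) at a Benjamini-Hochberg adjusted p under 0.05 in limma, 870 of them higher (6.83%) and 1599 lower (12.6%). The median change over all genes tested was -0.0083, which the normalization of each array to a like distribution sets near 0, so a change relative to the whole distribution is what these counts show. Rises were larger: 181 genes rose at least 1.5-fold (1.42%) and 247 fell as much (1.94%), while 62 genes rose at least 2-fold (0.487%) and 19 fell at least 2-fold (0.149%). All 8 reduced oxygen arrays lay above all 8 control arrays for 152 of the genes tested (1.19%) and below them for 445 (3.49%). Within replicates numbered 1 to 4 alone, 230 genes were called higher and 231 lower, so the excess of falls was not seen among calls in those 8 arrays.

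The 12 largest rises were, in order, Errfi1, Il1r2, Dusp1, Pdk4, Fos, Mmp8, Ddit4, Neto2, H3f3b, Kcne4, Dnah2 and Apold1, genes of several roles. Errfi1, a feedback inhibitor of the EGF receptor, stood at 10.67, 10.91 and 11.57 (lowest, median and highest array) in reduced oxygen spleens, against 7.56, 8.48 and 8.83 in control spleens. It rose 6.3-fold, a log2 change of 2.65 ± 0.17 (standard error, adjusted p = 3.44e-08), and a second probe set of the gene gave 2.48. Dusp1, a phosphatase that switches off MAP kinases, stood at 11.24, 11.53 and 12.003 in reduced oxygen spleens, against 8.76, 9.14 and 9.61 in control spleens. More than 1 log2 unit separated the lowest reduced oxygen array from the highest control array for both genes.

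Kcne4, a regulatory subunit of voltage-gated potassium channels, had the smallest p of all genes tested (1.47e-10 after adjustment). Its 8 reduced oxygen arrays lay at 8.93, 9.16 and 9.51, against 7.06, 7.22 and 7.43 in control arrays, a rise of 1.97 ± 0.082 with an SD of 0.20 under reduced oxygen and 0.12 in controls (n = 8 each). Pdk4, which turns off pyruvate dehydrogenase and so spares glucose, reached 8.83, 9.32 and 10.03 under reduced oxygen, against 6.53, 7.19 and 7.68 in controls (4.5-fold, adjusted p = 4.89e-07). Fos, a subunit of the transcription factor AP-1, reached 8.18, 8.84 and 9.87 under reduced oxygen, against 6.31, 6.77 and 7.43 in controls (4.47-fold, adjusted p = 4.89e-06). Both pairs of groups were free of overlap.

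Ddit4, also known as REDD1, an inhibitor of the growth kinase complex mTORC1 and a target of both HIF and the glucocorticoid receptor, stood at 11.37, 12.09 and 12.30 under reduced oxygen, against 9.17, 9.86 and 10.94 in controls. Neto2, an auxiliary subunit of kainate receptors, rose by 2.09 ± 0.22, and its other probe sets changed by 0.75 and 3.11. H3f3b, which encodes the replication-independent histone H3.3, rose by 1.98 ± 0.20, and Dnah2, an axonemal dynein heavy chain, by 1.86 ± 0.18. The second, dim Dnah2 probe set moved by 0.0092. Apold1, an early response gene of blood vessel endothelium, stood at 7.09, 7.68 and 9.16 under reduced oxygen, against 5.54, 5.84 and 6.71 in controls (adjusted p = 0.000145). None of these groups overlapped.

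Il1r2 and Mmp8 stood out for their spread. Il1r2, a decoy receptor that binds interleukin 1 without signalling, measured 7.91, 7.58, 10.66, 8.69, 7.50, 10.48, 9.43 and 9.64 in reduced oxygen arrays 1 to 8, against 6.15, 6.50 and 6.97 in control arrays (change 2.42 ± 0.41, adjusted p = 0.000465). Mmp8, the collagenase of neutrophil granules, measured 6.65, 6.10, 10.16, 8.36, 6.45, 9.62, 8.09 and 8.56 in the same order, against 5.28, 5.85 and 6.42 in controls (change 2.15 ± 0.49, adjusted p = 0.00496). Arrays 1, 2 and 5 were the lowest of their group for both genes, and of the 12 largest rises Mmp8 was the 1 gene whose groups overlapped.

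**Figure D1:**
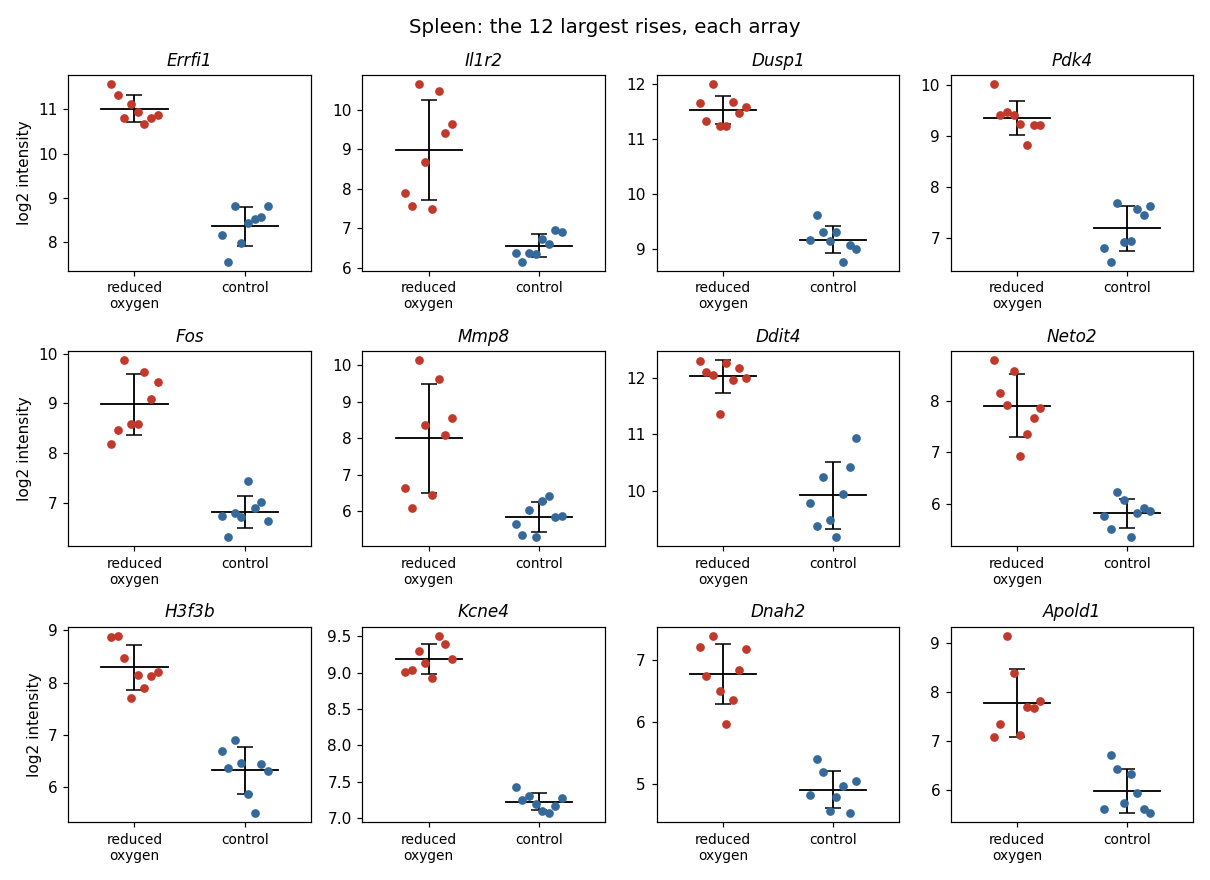
Log2 intensity of the 12 genes with the largest rises in each spleen array, reduced oxygen on the left and control on the right of each panel, where points are arrays, long bars the mean and whiskers 1 SD (n = 8 per group). Errfi1 (mean 11.01 under reduced oxygen and 8.36 in controls) and Kcne4 (9.19 under reduced oxygen and 7.22 in controls) separated with narrow groups, while Il1r2 and Mmp8 spread over more than 3 log2 units under reduced oxygen.

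The 12 largest falls ran from Pcdh18 to Zfp397 and also covered several roles. Pcdh18, a protocadherin of cell contacts, fell to 4.95, 5.35 and 5.83 in reduced oxygen spleens, against 6.63, 7.19 and 7.68 in control spleens, a change of -1.81 ± 0.14 (adjusted p = 2.58e-07). The lowest control array lay 0.80 above the highest reduced oxygen array. Egr3, a zinc-finger transcription factor induced by antigen receptors, stood at 5.82, 7.53 and 8.06 under reduced oxygen, against 8.55, 9.08 and 9.42 in controls (change -1.69 ± 0.24, adjusted p = 0.000108). Array 4 was the lowest Egr3 value, and a second probe set of Egr3 moved by 0.059 and did not show the fall.

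Id3, which blocks DNA binding by E-protein transcription factors of lymphocytes, stood at 8.39, 8.72 and 9.19 under reduced oxygen, against 9.57, 9.96 and 10.16 in controls (change -1.16 ± 0.13). Tbx21, the T-bet factor of type 1 T cells and natural killer cells, stood at 5.97, 6.61 and 6.90 under reduced oxygen, against 7.25, 7.60 and 8.06 in controls (change -1.06 ± 0.14). Traf1, an adaptor of TNF receptor signalling, stood at 6.80, 7.89 and 8.21 under reduced oxygen, against 8.57, 9.01 and 9.18 in controls (change -1.14 ± 0.16). In none of these 3 did the groups overlap, and their adjusted p were 7.6e-06, 5.99e-05 and 6.78e-05. Array 4 was the lowest under reduced oxygen for Traf1 and array 3 for Tbx21.

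Cebpg, a bZIP partner of other C/EBP factors, fell by 1.08 on the log2 scale with a control SD of 0.056 (n = 8), the tightest control group among the 12. Its other probe sets moved by 0.31 and -0.52, so its direction depended on the probe set. The zinc-finger genes Zfp467 (-1.33 ± 0.12), Zfp429 (-1.10 ± 0.10) and Zfp397 (-1.03 ± 0.088), the THAP-domain gene Thap2 (-1.43 ± 0.13), the RNA-binding gene Rbm12b1 (-1.45 ± 0.17) and Ttpal (-1.04 ± 0.087), a relative of the vitamin E transfer protein, made up the rest. The other probe sets of Zfp397 moved by -0.18 and -0.092, that of Thap2 by -0.15 and that of Rbm12b1 by -0.033.

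**Figure D2:**
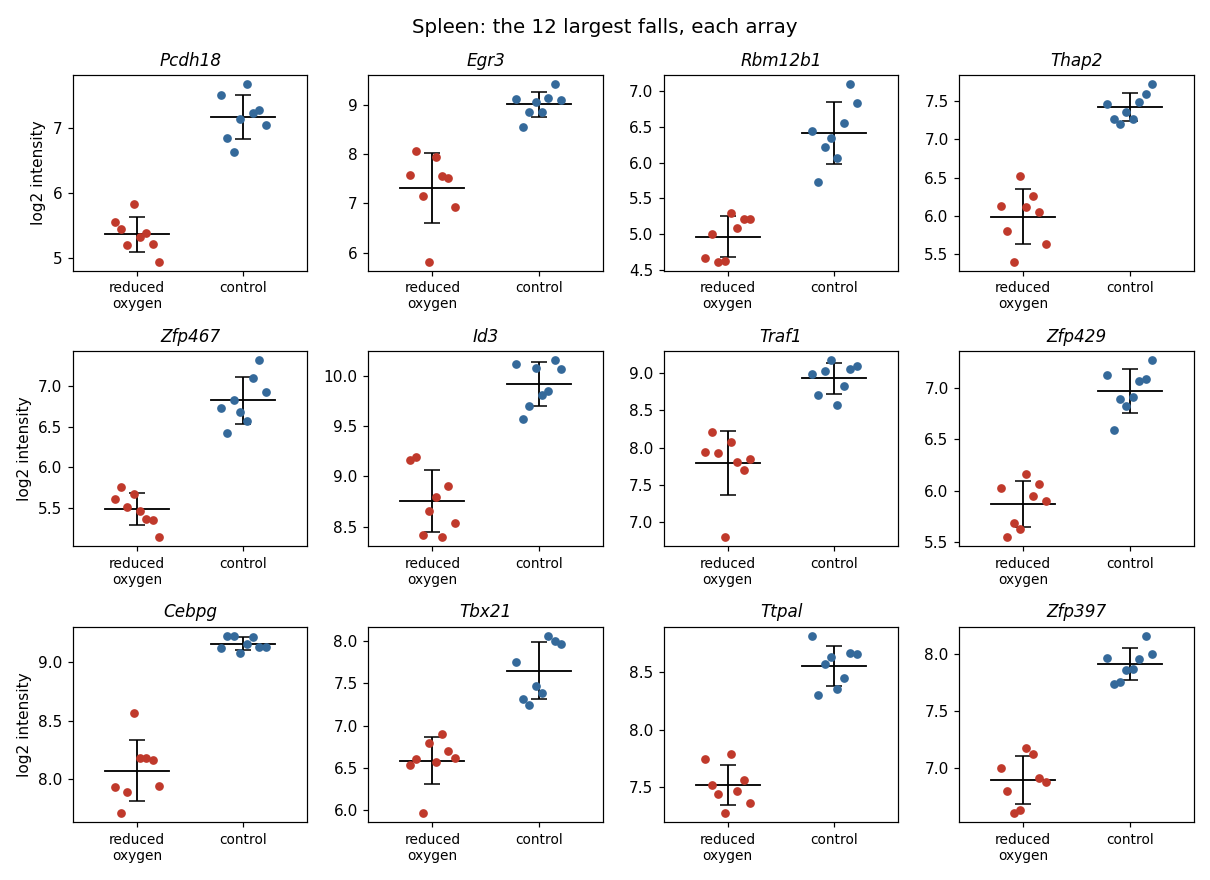
Log2 intensity of the 12 genes with the largest falls in each spleen array, reduced oxygen on the left and control on the right of each panel, where points are arrays, long bars the mean and whiskers 1 SD (n = 8 per group). In all 12 panels the highest reduced oxygen array lies below the lowest control array, as for Pcdh18 with 5.83 as the highest under reduced oxygen and 6.63 as the lowest control.

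The direction of change differed between groups of genes. Of the 23 response lists, glucocorticoid-responsive genes had the highest share called higher, 27 of 37, beside 6.83% of all genes. The lists were chosen with earlier results of these data known, so this ranking describes them and is not a test. The list counts below stand beside 6.83% higher and 12.6% lower over all genes tested. HIF target genes (14 of 36 higher, 0 lower) and glycolysis genes (8 of 22 higher, 0 lower) moved one way. Early response, clock, p53 and mTORC1-linked lists held calls in both directions. The lists share members, so their counts are not separate. Ddit4, Mt1 and Cited2 rose in both the HIF and glucocorticoid lists. Ldha, Pfkfb4 and Pgk1 counted in both the HIF and glycolysis lists, and Pdk4 in the glycolysis and glucocorticoid lists. Of 144 called list members, 116 kept the call when each of the 16 arrays was left out in turn and 28 lost it at least once.

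**Figure D3:**
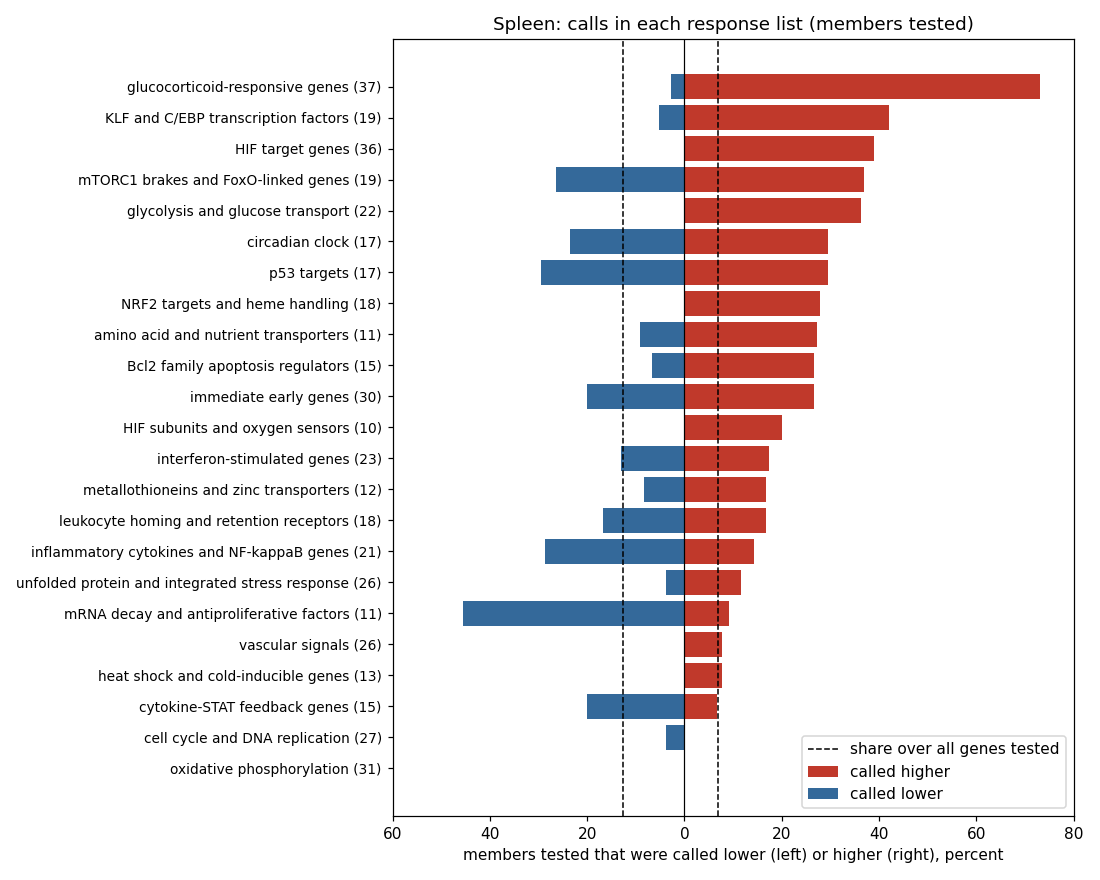
Share of the tested members of each response list called lower (left of 0) and called higher (right of 0) under reduced oxygen, in percent, with the number tested in brackets and dashed lines at the shares over all genes tested (12.6% lower and 6.83% higher). Glucocorticoid-responsive genes had the longest bar to the right, mRNA decay and antiproliferative factors the longest to the left, and oxidative phosphorylation genes had no bar.

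Among the oxygen-sensing genes themselves, the HIF alpha subunits did not pass the test: Hif1a stood at 10.49, 10.89 and 11.14 in reduced oxygen spleens and at 10.52, 10.89 and 11.06 in control spleens (change 0.05 ± 0.10, adjusted p = 0.781), and Epas1, which encodes HIF-2 alpha, moved by -0.077 ± 0.11 (adjusted p = 0.683). Of 10 genes of this list, 2 rose and 0 fell, and without reduced oxygen array 2 or 3 there were 2 or 1 called lower. HIF alpha is mainly controlled as a protein, which arrays do not see. The prolyl hydroxylases differed. Egln3, the isoform most strongly induced by HIF, stood at 5.69, 6.37 and 7.46 under reduced oxygen, against 4.997, 5.43 and 5.64 in controls (change 1.06 ± 0.23, adjusted p = 0.00394). Egln2 stood at 9.93, 10.41 and 10.57 under reduced oxygen, against 9.56, 9.61 and 9.76 in controls (change 0.71 ± 0.077, adjusted p = 7.61e-06). The groups of both genes were separate, whereas Egln1 moved by 0.13 ± 0.079 (adjusted p = 0.286).

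Of 36 HIF target genes tested, 14 rose, 0 fell and 33 had a positive change, with a median of 0.24 over the list. The 3 of smallest p were Ankrd37, Ddit4 and Adm. Ankrd37, an ankyrin-repeat protein and direct HIF target, stood at 7.10, 8.18 and 8.39 in reduced oxygen spleens, against 6.35, 6.42 and 6.84 in control spleens (2.98-fold, adjusted p = 2.18e-06). Adm, the vessel-dilating peptide adrenomedullin, stood at 7.53, 8.33 and 8.65 under reduced oxygen, against 6.93, 7.17 and 7.23 in controls (2.21-fold, adjusted p = 4.64e-06). For both genes every reduced oxygen array exceeded every control array, and array 4 was the lowest under reduced oxygen.

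Bnip3, a mitophagy receptor, reached 8.36, 8.71 and 9.39 under reduced oxygen, against 7.68, 7.98 and 8.38 in controls (change 0.75 ± 0.12, adjusted p = 0.000317), with a slight overlap. Hmox1, which breaks down heme and is also high in red pulp macrophages, rose by 0.72 ± 0.18 (adjusted p = 0.00767), with an adjusted p of 0.0696 when the spread was estimated over all 39 arrays. Smaller rises were seen for Cited2 (0.63 ± 0.11), a brake on HIF, and Ndrg1 (0.30 ± 0.083). Several genes widely used as hypoxia markers did not pass in the fit used here: Vegfa, the endothelial growth factor, changed by 0.29 ± 0.10 (adjusted p = 0.0617, 0.49 by its other probe set), the glucose transporter Slc2a1 by 0.37 ± 0.13 (adjusted p = 0.0587), Angptl4 by 0.13 ± 0.11 (adjusted p = 0.444), Hk2 by 0.11 ± 0.10 (adjusted p = 0.489) and Car9 by -0.057 ± 0.066 (adjusted p = 0.603). A dim second probe set of Angptl4 changed by 0.85, and the mean of both passed the test. Vegfa and Slc2a1 lay near the threshold: Vegfa passed in 8 of 31 alternatives, among them the mean of its probe sets (adjusted p = 0.00793), and Slc2a1 in 4 of 31, the same mean among them (adjusted p = 0.0424).

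Promoter windows of 250 bases before to 50 after a transcription start, from RefSeq (GRCm38.p6), were searched on both strands for ACGTG, the core letters of hypoxia response elements. The letters were present in 9 of 12 windows (75.0%) of the HIF target genes that rose and in 19 of 27 windows (70.4%) of those that did not pass, beside 6447 of 32851 windows (19.6%) over all genes. Among windows of genes tested, those called higher had the letters in 27.2% and those called lower in 22.1%, beside 24.5% of windows of all genes tested. A match is a description of the sequence and not a binding site. Ankrd37 (chr8:45999801-46000100, minus strand) and Ddit4 (chr10:59951721-59952020, minus strand), the list members of smallest p, are shown on the gene's strand with ACGTG in capitals.
Ankrd37: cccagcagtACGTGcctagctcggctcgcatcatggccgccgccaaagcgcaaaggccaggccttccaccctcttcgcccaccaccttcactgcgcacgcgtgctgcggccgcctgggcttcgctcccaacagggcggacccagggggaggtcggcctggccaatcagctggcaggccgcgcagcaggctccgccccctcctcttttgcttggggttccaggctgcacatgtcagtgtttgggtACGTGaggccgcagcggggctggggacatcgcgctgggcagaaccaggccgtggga
Ddit4: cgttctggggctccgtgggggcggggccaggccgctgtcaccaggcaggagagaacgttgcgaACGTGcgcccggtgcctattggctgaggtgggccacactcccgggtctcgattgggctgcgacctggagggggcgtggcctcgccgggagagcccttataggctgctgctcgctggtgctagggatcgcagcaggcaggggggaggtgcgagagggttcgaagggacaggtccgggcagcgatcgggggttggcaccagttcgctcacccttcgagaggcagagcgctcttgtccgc

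Genes of sugar breakdown showed small rises. Of 22 glycolysis and glucose transport genes tested, 8 rose, 0 fell and 20 had a positive change, with a median of 0.28. Below Pdk4 the clearest were Tpi1, triose phosphate isomerase, at 10.42, 10.61 and 10.91 under reduced oxygen, against 10.04, 10.19 and 10.34 in controls (change 0.46 ± 0.075, adjusted p = 0.000309), and Pfkl, the liver-type phosphofructokinase, at 9.34, 9.54 and 9.75 under reduced oxygen, against 9.05, 9.17 and 9.28 in controls (change 0.41 ± 0.063, adjusted p = 0.000216). Both were separated without overlap at fold changes of 1.38 and 1.32. Slc16a3, the lactate exporter MCT4, rose by 0.71 ± 0.20 and Ldha, lactate dehydrogenase A, by 0.29 ± 0.079, while Pfkfb3 changed by 0.045 ± 0.14 (adjusted p = 0.861). Pgk1 (0.25 ± 0.078, adjusted p = 0.0352) and Pgam1 (0.28 ± 0.094, adjusted p = 0.0449) passed, but lost the call in 10 and 12 of the 16 fits with 1 array left out. Of 31 genes of oxidative phosphorylation, 0 were called by limma in either direction, with a median change of 0.09 and 28 positive changes. Without control array 1, 4 of the 31 were called higher, without reduced oxygen array 5 there were 2, and without control array 2 there was 1.

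Glucocorticoid-responsive genes had the highest share of calls among the response lists, which were chosen with earlier results of these data known. Of 37 tested, 27 rose, 1 fell and 24 rose without any overlap between groups (1.19% over all genes), and the list's median change was 1.21. Fkbp5, a chaperone that restrains the glucocorticoid receptor, stood at 10.46, 11.07 and 11.34 in reduced oxygen spleens, against 8.60, 9.16 and 9.83 in control spleens (3.37-fold, adjusted p = 2.14e-06). Tsc22d3, the anti-inflammatory protein GILZ, stood at 11.38, 12.05 and 12.26 under reduced oxygen, against 9.84, 10.55 and 11.27 in controls (2.66-fold, adjusted p = 4.29e-05). Cebpd, a C/EBP transcription factor, stood at 9.69, 9.85 and 10.11 under reduced oxygen, against 7.87, 8.30 and 8.52 in controls (3.08-fold, adjusted p = 1.27e-08). Array by array these 3 genes left a gap between the groups.

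Further rises of the list spanned several roles. The kinase gene Sgk1 rose by 1.01 ± 0.10, the KLF factors Klf15 by 1.62 ± 0.15 and Klf9 by 1.19 ± 0.15, Cebpb by 1.27 ± 0.17, the actin-linked gene Fam107a by 1.64 ± 0.27, the small GTPase gene Rhob by 1.21 ± 0.12 and the zinc-finger factor Zbtb16 by 1.27 ± 0.26. Zbtb16 was uneven across replicate numbers, with a change of 2.09 within replicates 1 to 4 and 0.45 within 5 to 8. The member that fell was Bcl6, a repressor of B cell differentiation, by 0.71 on the log2 scale (adjusted p = 0.00128, and 0.103 with the spread of all 39 arrays). The receptor's own gene Nr3c1 changed by -0.20 ± 0.091 (adjusted p = 0.149), and the liver enzyme gene Tat by -0.074 ± 0.089 (adjusted p = 0.615). The list's count stayed between 26 and 27 higher when any 1 array was left out, and was 23 within replicates 1 to 4 and 25 within replicates 5 to 8. Without control array 2, 3 members were called lower.

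Mt1 and Mt2, metallothioneins that bind zinc and copper, rose by 1.45 ± 0.24 and 1.67 ± 0.37. Mt1 stood at 10.50, 11.31 and 12.01 under reduced oxygen, against 8.996, 10.15 and 10.50 in controls, and Mt2 at 9.72, 10.50 and 11.45 under reduced oxygen, against 7.13, 9.48 and 9.60 in controls. Control arrays 6, 7 and 8, those with low erythroid markers, were also the lowest controls for Mt2 at 8.50, 7.13 and 8.10, and the part of red cell content in the Mt2 change was not tested. Of the other 10 metallothionein and zinc transporter genes, 1 fell, the zinc importer Slc39a10 (-0.40 ± 0.10, adjusted p = 0.00747), and 0 rose.

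The glucocorticoid receptor palindrome, GNACA and TGTNC 3 bases apart where N is any base, was found in 4 of 39 promoter windows (10.3%) of the glucocorticoid list members that rose and in 0.475% of all windows. TGACGTCA, the cAMP response element, was found in 1.79% of all windows. The Mt1 window (chr8:94178839-94179138, plus strand) is shown because both searches marked it, with the longer run as the palindrome and CACGT as ACGTG read on the other strand. The Dusp1 window (chr17:26508423-26508722, minus strand) held TGACGTCA and CACGTG, and the Kcne4 window (chr1:78816661-78816960, plus strand), shown for the gene of smallest p, held CACGTG, which contains ACGTG on both strands. Capitals mark these letters.
Mt1: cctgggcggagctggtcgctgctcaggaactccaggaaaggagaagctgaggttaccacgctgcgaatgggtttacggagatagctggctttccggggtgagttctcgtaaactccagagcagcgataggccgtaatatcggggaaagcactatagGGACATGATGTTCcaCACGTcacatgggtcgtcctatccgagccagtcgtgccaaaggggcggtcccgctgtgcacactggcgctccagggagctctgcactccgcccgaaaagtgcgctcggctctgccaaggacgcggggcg
Dusp1: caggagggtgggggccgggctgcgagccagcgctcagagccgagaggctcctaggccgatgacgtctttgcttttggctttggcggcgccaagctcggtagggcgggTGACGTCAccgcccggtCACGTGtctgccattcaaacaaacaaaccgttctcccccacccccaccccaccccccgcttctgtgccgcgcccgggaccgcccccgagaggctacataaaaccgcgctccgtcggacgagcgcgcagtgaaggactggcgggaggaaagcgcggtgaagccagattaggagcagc
Kcne4: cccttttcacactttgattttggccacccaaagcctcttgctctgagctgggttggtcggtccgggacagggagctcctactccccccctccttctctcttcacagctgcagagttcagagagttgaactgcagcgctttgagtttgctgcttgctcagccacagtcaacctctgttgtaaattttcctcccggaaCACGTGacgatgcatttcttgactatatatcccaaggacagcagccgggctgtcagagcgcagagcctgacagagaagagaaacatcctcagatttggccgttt

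Brakes on mTORC1 and genes linked to FoxO factors, which rise when growth signals fade, split: of 19 tested, 7 rose and 5 fell, with a median of 0.11. Arrdc3, an alpha-arrestin that turns over membrane receptors, stood at 10.26, 10.52 and 10.73 in reduced oxygen spleens, against 8.57, 8.79 and 9.33 in control spleens (3.12-fold, adjusted p = 3.64e-08). Pik3ip1, an inhibitor of PI3 kinase, stood at 9.79, 10.76 and 11.19 under reduced oxygen, against 8.37, 8.85 and 9.25 in controls (3.47-fold, adjusted p = 3.36e-06). The groups overlapped for neither gene. Irs2, the insulin receptor adaptor, and Txnip, a thioredoxin inhibitor that limits glucose uptake, rose by 0.71 ± 0.087 and 0.67 ± 0.12. Other members went the other way: Arrdc4 fell by 0.69, the cyclin gene Ccng2 by 0.55 and Klhl24 by 0.40 on the log2 scale.

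Genes of cell cycle arrest and death were also mixed. Of 17 p53 targets tested, 5 rose and 5 fell. Sesn1, a sestrin that restrains mTORC1 in amino acid shortage, reached 11.50, 12.63 and 12.83 under reduced oxygen, against 11.02, 11.18 and 11.42 in controls (2.41-fold, adjusted p = 2.48e-05). Cdkn1a, the cell cycle inhibitor p21, reached 8.24, 8.81 and 9.12 under reduced oxygen, against 7.07, 7.54 and 7.69 in controls (2.38-fold, adjusted p = 2.85e-06), and Plk2, a polo-like kinase, rose by 0.81 ± 0.089. For these 3 genes every reduced oxygen array exceeded every control, while Zmat3 fell by 0.40 on the log2 scale and Mdm2, the p53 ligase and a classic target, changed by -0.11 ± 0.052 (adjusted p = 0.167). A dimmer second probe set of Plk2 moved by -0.086.

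Of 15 Bcl2 family genes, 4 rose and 1 fell. Bbc3, the death trigger PUMA, stood at 7.85, 8.73 and 8.97 in reduced oxygen spleens, against 7.42, 7.70 and 8.12 in control spleens (change 0.92 ± 0.14, adjusted p = 0.000202). Bcl2l11, the death trigger BIM, stood at 10.25, 10.59 and 10.95 under reduced oxygen, against 9.79, 9.94 and 10.26 in controls (change 0.67 ± 0.10, adjusted p = 0.000199). The groups of Bbc3 met through array 4, the lowest under reduced oxygen, and those of Bcl2l11 overlapped slightly. Bcl2l2, the survival gene Bcl-w, fell to 7.37, 7.61 and 7.95 under reduced oxygen, against 8.02, 8.20 and 8.32 in controls, without overlap. Its other, dimmer probe sets moved by -0.049, -0.078 and -0.073. The survival genes Bcl2 (-0.10 ± 0.15) and Mcl1 (-0.038 ± 0.065) did not pass, and Bmf (adjusted p = 0.0458) passed but lost the call in 11 of 16 fits with 1 array left out.

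Clock genes moved in opposite directions after the same 2 hours: of 17 tested, 5 rose and 4 fell, with a median of -0.023. Per1, the clock repressor that also answers directly to glucocorticoids and cAMP, stood at 8.82, 9.39 and 9.48 under reduced oxygen, against 7.27, 7.72 and 7.98 in controls (3.07-fold, adjusted p = 2.66e-07). Bhlhe40, a repressor induced by HIF, rose by 0.68 ± 0.10 and Nfil3, a bZIP repressor, by 1.08 ± 0.23. Per2 rose by 0.27 ± 0.075, while Per3 fell by 0.46, Dbp, an output factor of the clock, by 0.72 and Cry1 by 0.31 on the log2 scale. The core activator gene Arntl changed by -0.075 ± 0.10 (adjusted p = 0.653), and Nr1d1, the heme-binding repressor REV-ERB alpha, by -0.14 ± 0.20 (adjusted p = 0.662). The Per1 groups were fully separate, those of Nfil3 met by 0.040 and those of Dbp overlapped.

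Immediate early genes, which are switched on within minutes of a stimulus, did not rise as a group: of 30 tested, 8 rose and 6 fell, with a median of 0.08. Beside Dusp1 and Fos, Ier3, a stress-induced survival gene, stood at 7.46, 8.09 and 8.90 in reduced oxygen spleens, against 6.47, 6.70 and 7.03 in control spleens (2.71-fold, adjusted p = 8.01e-06). The AP-1 gene Fosl2 rose by 1.13 ± 0.19, the phosphatase gene Dusp2 by 0.90 ± 0.18 and Myc by 0.43 ± 0.085. Egr2, a relative of Egr3, fell to 4.97, 5.95 and 6.40 under reduced oxygen, against 6.47, 6.70 and 6.97 in controls, without overlap, and Ier5 to 9.08, 9.78 and 10.08 under reduced oxygen, against 10.24, 10.50 and 10.92 in controls. Gadd45b fell by 0.70 on the log2 scale. Egr1 (-0.19 ± 0.12), Jun (0.14 ± 0.14), Nr4a1 (-0.045 ± 0.13) and Atf3 (0.095 ± 0.12), among the most used members of the list, did not pass. Within replicates 1 to 4, 7 members were called higher and 0 lower, and Egr3 had an adjusted p of 0.0604 there.

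Several genes of NF-kappaB signalling fell. Of 21 inflammatory cytokine and NF-kappaB genes tested, 6 fell and 3 rose, with a median of -0.012 over the list. Icam1, the adhesion molecule of activated endothelium and leukocytes, stood at 8.16, 8.93 and 9.11 in reduced oxygen spleens, against 9.22, 9.56 and 9.68 in control spleens (change -0.64 ± 0.12, adjusted p = 0.00105). Tnf stood at 6.11, 6.42 and 6.57 under reduced oxygen, against 6.58, 6.78 and 7.06 in controls (change -0.40 ± 0.079, adjusted p = 0.00171). Neither pair overlapped, though Tnf's gap was 0.014. Cxcl10, a chemokine induced by interferon gamma, fell by 1.01 on the log2 scale (adjusted p = 0.00147), Nfkb2 by 0.61 and the inhibitor genes Nfkbie by 0.88 and Nfkbib by 0.26. Nfkbia, the inhibitor most used as a readout of the pathway, changed by 0.094 ± 0.11 (adjusted p = 0.601), and Il1b by 0.30 ± 0.31 (adjusted p = 0.548). The 3 risers were Il1r2, Cd14, the lipopolysaccharide co-receptor of myeloid cells (1.15 ± 0.24), and Il1a (adjusted p = 0.0389), and without reduced oxygen array 4 the count of risers was 5.

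Interferon-stimulated genes gave 4 rises (17.4%) and 3 falls (13%) among 23 tested, beside 6.83% and 12.6% of all genes. The share of falls was thus near that over all genes. Oasl1 stood at 8.31, 8.48 and 8.77 in reduced oxygen spleens, against 7.33, 7.75 and 7.82 in control spleens (change 0.83 ± 0.081, adjusted p = 2.73e-06), with no overlap. Mx1, an antiviral GTPase, rose by 0.69 ± 0.14, and Irf1, a transcription factor induced by interferon gamma, fell by 0.67 on the log2 scale (adjusted p = 0.0033). Among 15 feedback genes of cytokine-STAT signalling, Pim2, a survival kinase, fell to 7.92, 8.25 and 8.52 under reduced oxygen, against 8.66, 8.75 and 8.99 in controls, without overlap, and Bcl3 fell by 0.60 on the log2 scale. Socs3, the usual early readout of STAT3, changed by 0.26 ± 0.25 (adjusted p = 0.514).

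Receptors that hold leukocytes in place or move them changed in part. Of 18 tested, 3 rose (16.7%, beside 6.83% of all genes) and 3 fell (16.7%, beside 12.6%). Cxcr4, the receptor for the retention signal CXCL12, stood at 10.59, 11.12 and 11.28 in reduced oxygen spleens, against 9.55, 9.94 and 10.57 in control spleens (2.04-fold, adjusted p = 5.86e-05), a narrow separation with array 4 the lowest under reduced oxygen. S1pr4, a sphingosine phosphate receptor of lymphocytes, fell by 0.39 on the log2 scale (adjusted p = 0.00955). The B cell positioning receptors Gpr183 (-0.63 ± 0.19, adjusted p = 0.0264) and Cxcr5 (-0.74 ± 0.23, adjusted p = 0.028) passed, but Gpr183 lost the call without control array 1 or 7, and Cxcr5 without reduced oxygen array 3 or control array 7 or 8, with adjusted p of up to 0.0523 and 0.0582. Itga4, an integrin subunit, rose by 0.25 ± 0.06. Of its other probe sets, 1 moved by -0.28 and the rest by 0.28, 0.36 and 0.70. The list's count of falls was 1 without control array 7 and 5 without reduced oxygen array 1 or 5.

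Factors that break down mRNA or restrain growth leaned down: of 11 tested, 5 fell and 1 rose. The exception was Zfp36l2, a zinc-finger protein that binds AU-rich mRNAs, at 11.62, 12.46 and 12.68 under reduced oxygen, against 10.54, 10.997 and 11.35 in controls (2.63-fold, adjusted p = 2.24e-06), with no overlap. Tob2 and Tob1, antiproliferative adaptors of the deadenylase, fell by 0.67 and 0.50 on the log2 scale, and the relative Zfp36l1 fell by 0.45. The changes of the 5 Tob2 probe sets ranged from -0.73 to -0.064. Without control array 2 the count of rises was 2. Of 19 KLF and C/EBP factors, 8 rose and 1, Cebpg, fell.

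Other stress programmes differed in how many genes changed, beside 6.83% higher and 12.6% lower over all genes. Of 26 genes of the unfolded protein and integrated stress responses, 3 rose (11.5%) and 1 fell. Herpud1, a part of the machinery that clears misfolded proteins, rose by 0.70 ± 0.15 (adjusted p = 0.00317), while the central factors Atf4 (0.032 ± 0.07), Ddit3 (-0.085 ± 0.056) and Hspa5 (-0.11 ± 0.073) did not pass. The count of rises was 1 without control array 4 or 8 or reduced oxygen array 3 or 6. Of 13 heat shock and cold-inducible genes, 1 rose, Cirbp, the cold-inducible RNA-binding protein, at 9.77, 10.37 and 11.03 in reduced oxygen spleens, against 8.57, 9.01 and 9.65 in control spleens (2.67-fold, adjusted p = 5.08e-05). Its lowest reduced oxygen array lay 0.12 above its highest control. Of 18 NRF2 and heme handling genes, 5 rose (27.8%) and 0 fell, led by Hp, the hemoglobin scavenger haptoglobin (1.73 ± 0.33), Osgin1 (0.33 ± 0.065) and Hmox1. The groups of Hp overlapped, and arrays 1 and 5, with low neutrophil markers, were the lowest for Hp at 8.93 and 9.23 under reduced oxygen, beside controls of up to 9.23. Of 11 nutrient transporters, 3 rose (27.3%) and 1 fell: the mitochondrial pyrimidine carrier Slc25a33 (0.39 ± 0.072), Slc7a8 (0.40 ± 0.11) and the arginine carrier Slc7a1 (0.29 ± 0.086) rose and the glutamine carrier Slc38a2 (-0.21 ± 0.058) fell, with 6 rises without control array 2. Of 26 vascular signal genes, 2 rose and 0 fell, and the count of rises was 5 without reduced oxygen array 5 and 1 without control array 3 or reduced oxygen array 1.

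The spleen is a mix of cells, and in bulk RNA fewer cells of a type and less RNA per cell cannot be told apart. Neutrophil genes were raised in some reduced oxygen arrays and not in others. Of 11 tested, 5 rose (Il1r2, Mmp8, Csf3r, Mmp9 and Cxcr2), 0 fell and 11 had positive changes, with a median of 1.06. Their mean level was 9.25, 8.48, 11.74, 10.84, 9.53, 11.51, 10.50 and 11.01 in reduced oxygen arrays 1 to 8, against 8.55 to 9.75 in control arrays. Arrays 1, 2 and 5 lay no higher than the highest control and the other 5 above it. Il1r2, Mmp8, Cd14 and Hp had low values in some or all of the same arrays, and the part of neutrophil content in their rises was not tested. The secreted calprotectin subunit gene S100a9 (0.99 ± 0.42, adjusted p = 0.109) and the iron-binding granule protein gene Lcn2 (1.33 ± 0.55, adjusted p = 0.0992) did not pass. Without reduced oxygen array 2, 9 of the 11 were called, and the call of Cxcr2 was lost in 11 of the 16 fits with 1 array left out. The 6 granule genes of neutrophil precursors had a median of 1.08 with 0 called by limma, 5 without array 2 and 2 without array 1.

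**Figure D4:**
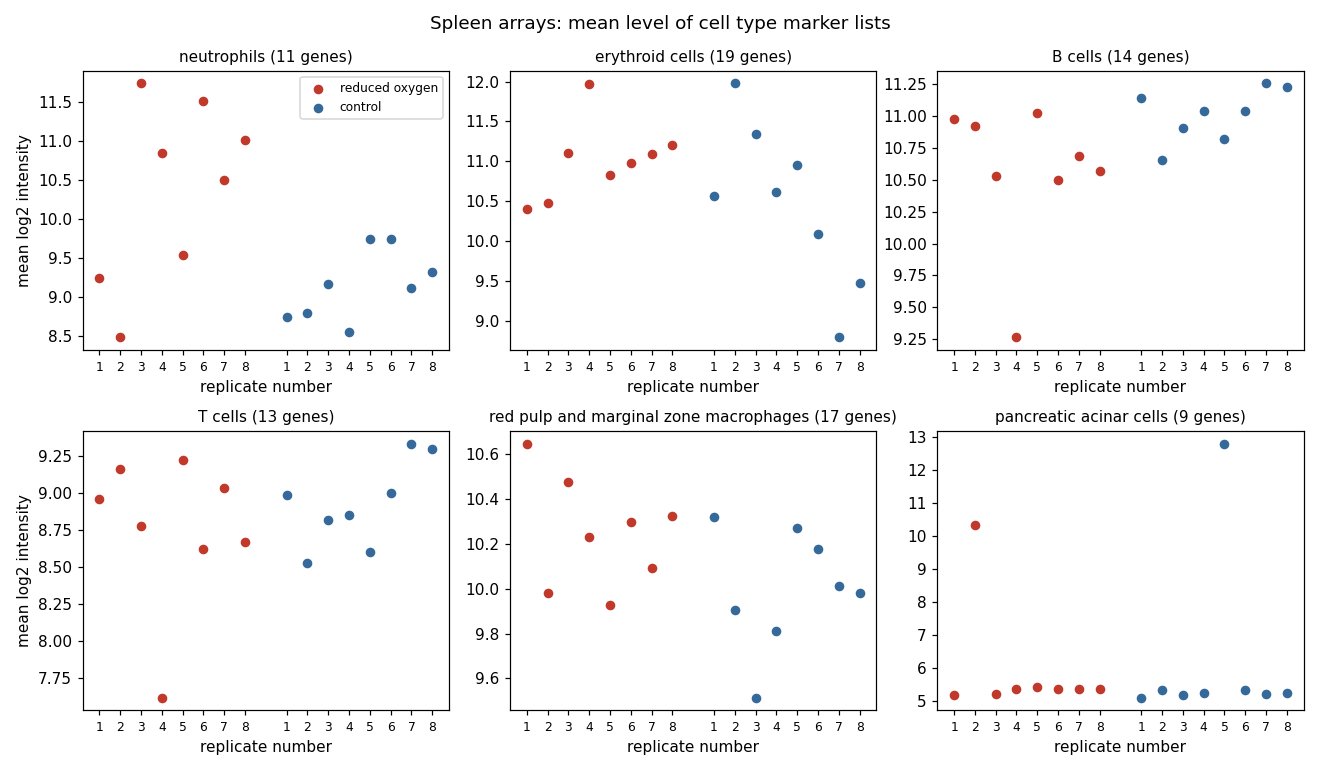
Mean log2 intensity of the marker list of 6 cell types in each spleen array, by replicate number, reduced oxygen on the left and control on the right of each panel. Neutrophil means exceed the highest control (9.75) in 5 of 8 reduced oxygen arrays, erythroid means are lowest in control arrays 6 to 8, and pancreatic acinar means stand out in reduced oxygen array 2 (10.35) and control array 5 (12.81).

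Erythroid and cell division genes differed between the replicates numbered 1 to 4 and those numbered 5 to 8. The 18 erythroid genes tested had a median change of 0.64 with 0 called by limma. The median was -0.10 within replicates 1 to 4 and 1.33 within replicates 5 to 8. Ank1, the ankyrin of the red cell skeleton, measured 9.90 to 11.96 in reduced oxygen spleens, against 7.97 to 11.75 in control spleens, with control arrays 6, 7 and 8 at 9.12, 7.97 and 8.58. The 27 cell cycle and DNA replication genes followed the same split, with medians of -0.20 within replicates 1 to 4 and 0.82 within 5 to 8, where 19 were called higher. Over all 16 arrays 1 was called, the G1 cyclin gene Ccnd1, which fell by 0.60 on the log2 scale (adjusted p = 0.00201) and was lower in both sets (-0.51 within replicates 1 to 4 and -0.68 within 5 to 8). With the erythroid marker mean as a covariate, 2828 genes were called, of which 2194 shared gene and direction with the 2469.

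B cell genes were lower under reduced oxygen on balance. Of 14 B cell genes, 14 had negative changes with a median of -0.46, and 4 fell (12.6% over all genes). Pax5, the factor that keeps B cell identity, stood at 7.14, 8.09 and 8.35 under reduced oxygen, against 8.28, 8.45 and 8.77 in controls (change -0.52 ± 0.14, adjusted p = 0.0148). Its other probe set moved by -0.034, and the mean of its probe sets did not pass (adjusted p = 0.106 in limma). The count of B cell falls was 1 without reduced oxygen array 3 or control array 7 or 8. It was 2 without reduced oxygen array 6 or 8 or control array 1, 3, 4 or 6. Without reduced oxygen array 4 it was 6, and the median was -0.28. Of 13 T cell genes, 1 rose (7.69%, beside 6.83% of all genes). This was Il7r (adjusted p = 0.0418), which lost the call in 12 of 16 fits with 1 array left out. Cd3e changed by -0.22 ± 0.18 (adjusted p = 0.422). Among 10 natural killer cell genes the killing proteins Gzmb (0.88 ± 0.16, adjusted p = 0.000756) and Prf1 (0.38 ± 0.10) rose, while the receptor Ncr1 changed by -0.22 ± 0.16 (adjusted p = 0.383). A dimmer second probe set of Prf1 moved by -0.039, and the mean of both did not pass (adjusted p = 0.0583 in limma). Gzmb ran at 6.89, 7.30 and 7.95 under reduced oxygen, against 6.03, 6.46 and 6.85 in controls, just free of overlap. Of 8 plasma cell genes, 1 fell (12.5%, near the 12.6% over all genes), Mzb1 (-0.64 ± 0.19), a chaperone of antibody assembly. Without control array 2 or reduced oxygen array 1, 2 fell.

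The lists of other resident cells held few calls each, though some leaned one way. Several list medians also differed by replicate number. Macrophage medians were 0.56 within replicates 1 to 4 and 0.0012 within 5 to 8. In the same order, endothelial medians were 0.37 and -0.12 and stromal medians 0.22 and -0.45. Of 14 endothelial genes, 2 fell (14.3%, beside 12.6% of all genes) and 2 rose (14.3%, beside 6.83%). Sox17 and Sox18, transcription factors of vessel identity, fell. The sinus endothelial scavenger receptor Stab1 (0.61 ± 0.13) and Egfl7 (0.49 ± 0.11) rose. Within replicates 5 to 8 Stab1 changed by 0.30 (adjusted p = 0.171 in limma). Sox17 stood at 5.53, 6.06 and 6.80 under reduced oxygen, against 6.84, 7.07 and 7.62 in controls (change -1.03 ± 0.16, adjusted p = 0.000223), without overlap. Without reduced oxygen array 5, 4 of the list were called higher. The endothelial markers Pecam1 (0.18 ± 0.13) and Cdh5 (0.18 ± 0.11) did not pass. Of 17 macrophage genes, 14 had positive changes with a median of 0.26, and 3 rose, Cd5l (0.62 ± 0.15), Hmox1 and C1qc. Of these, C1qc lost the call in 11 of 16 fits with 1 array left out. The count of rises was 7 without reduced oxygen array 5 and 5 without control array 5. Spic, the factor of red pulp macrophages, changed by -0.23 ± 0.13 (adjusted p = 0.257). Of 9 dendritic cell genes, 3 fell (33.3%, beside 12.6% of all genes) and 0 rose, led by Batf3 (-0.50 ± 0.086) and Zbtb46 (-0.37 ± 0.092), while Xcr1 lost the call in 11 of 16 such fits. Tlx1, the factor of spleen stroma, fell by 0.57 on the log2 scale (adjusted p = 0.00555). Of 11 megakaryocyte and platelet genes limma called 0, and 3 were called higher without reduced oxygen array 2. All 11 had positive changes, with a median of 0.32.

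The spleen response was then set against that of the liver by testing, gene by gene, the spleen change minus the liver change in 1 limma fit of all 39 arrays. Of 11260 genes tested in both tissues, 1115 differed (9.90%), 575 with the spleen change above (5.11%) and 540 below (4.80%). Spleen and liver arrays of equal number and treatment deviated together in part, with correlations over 0.1 in 8 of 8 reduced oxygen pairs and 4 of 8 control pairs, and with equal numbers as a random block 1527 genes differed, all 1115 among them. The 4 of smallest p were Tcim, Arrdc3, Slc38a2 and Snhg3. Arrdc3 changed by 1.64 in spleen and -2.88 in liver, a difference of 4.52 (adjusted p = 4.47e-16), the opposite direction. Tcim, a regulator of Wnt signalling also called TC1, changed by -0.65 in spleen and 2.47 in liver (difference -3.12, adjusted p = 4.47e-16). Slc38a2 changed by -0.21 in spleen and 1.84 in liver, and Snhg3, a small nucleolar RNA host gene, by 0.60 in spleen and 3.66 in liver.

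Of 35 HIF target genes tested in both tissues, the spleen change was below the liver change for 10 and above it for 2, Egln3 and Plin2. This and the list counts against liver below stand beside 4.80% below and 5.11% above over all genes tested in both tissues. Ddit4 changed by 2.11 in spleen and 4.84 in liver (adjusted p = 7.35e-09), Ankrd37 by 1.57 in spleen and 2.71 in liver (adjusted p = 0.0355), and Pfkfb3, the activator of glycolysis that did not pass in spleen, by 0.045 in spleen and 3.002 in liver (adjusted p = 6.86e-10). Adm, at 1.14 in spleen and 1.22 in liver, was not shown to differ (adjusted p = 0.824), nor was Bnip3 at 0.75 in spleen and 0.70 in liver (adjusted p = 0.897). Of 27 immediate early genes, 9 lay below the liver change and 1, Dusp2, above it, and of 19 inflammatory and NF-kappaB genes 8 lay below and 1, Il1r2, above.

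Glucocorticoid-responsive genes divided between the tissues: of 34 tested in both, 8 had a spleen change above and 13 below that of liver. Errfi1 (2.65 in spleen and 0.46 in liver, adjusted p = 1.94e-10), Klf15 (1.62 in spleen and 0.40 in liver) and Sesn1 (1.27 in spleen and -0.015 in liver) were above. Mt1 (1.45 in spleen and 3.45 in liver), Mt2 (1.67 in spleen and 4.40 in liver), Cdkn1a (1.25 in spleen and 2.92 in liver) and Cebpd (1.62 in spleen and 2.26 in liver) were below. Other genes whose spleen rise exceeded the liver change were Zfp36l2 (1.40 in spleen and -0.16 in liver), Kcne4 (1.97 in spleen and 0.72 in liver), Bbc3 (0.92 in spleen and -0.50 in liver) and Osgin1 (0.33 in spleen and -2.11 in liver). Fos was not shown to differ (2.16 in spleen and 2.03 in liver, adjusted p = 0.82).

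**Figure D5:**
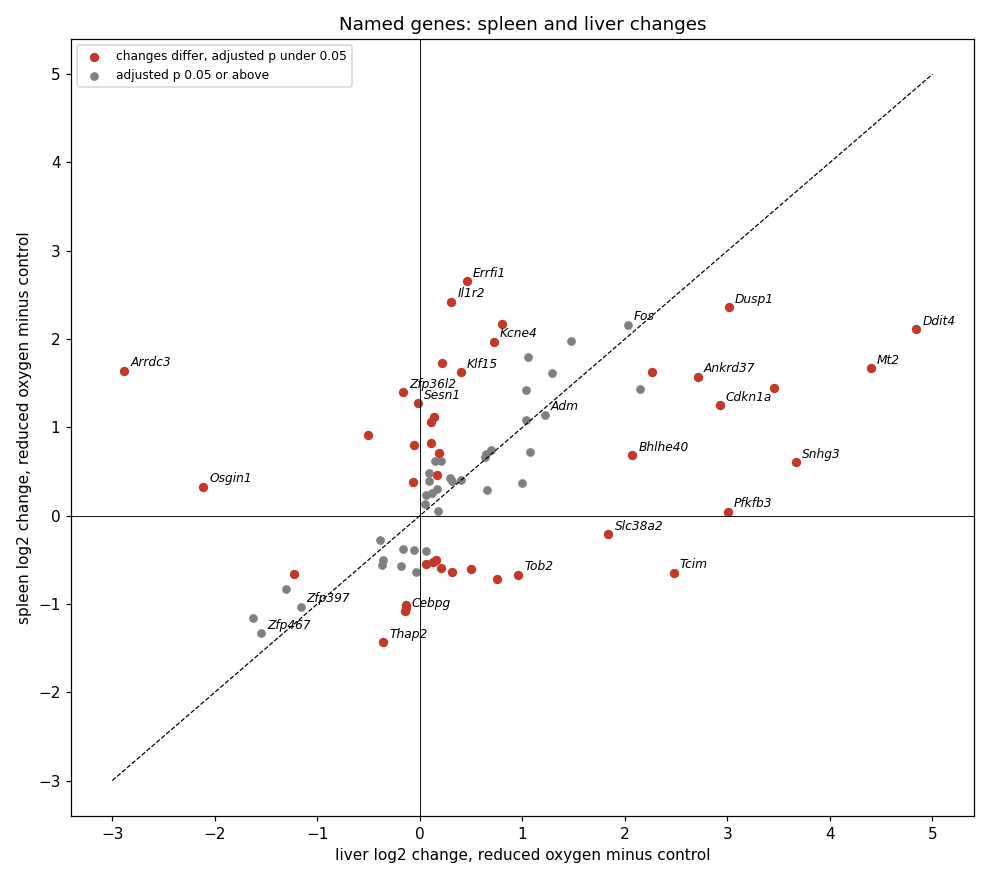
Log2 change under reduced oxygen in spleen (vertical) against liver (horizontal) for the named genes tested in both tissues, 1 point per gene, red where the changes differ at adjusted p under 0.05, with a dashed line of equal change. Arrdc3 lies at 1.64 in spleen and -2.88 in liver, Errfi1 at 2.65 in spleen and 0.46 in liver, and Ddit4 at 2.11 in spleen and 4.84 in liver.

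Against bone marrow, 35 of 12101 genes differed in their change (0.289%), 11 with the spleen change above (0.0909%) and 24 below (0.198%), in a comparison that held 7 bone marrow arrays. The 4 of smallest p were Ccn1, Cebpd, Pcdh18 and Neto2. Ccn1, a matrix protein and early response gene, changed by 0.30 in spleen and 3.21 in bone marrow (difference -2.91, adjusted p = 2.51e-09). In spleen the other Ccn1 probe sets moved by 0.18, -0.33 and -0.42. Cebpd changed by 1.62 in spleen and -0.59 in bone marrow (difference 2.21, adjusted p = 1.82e-08). Neto2 changed by 2.09 in spleen and -0.12 in bone marrow (adjusted p = 7.03e-06) and Pcdh18 by -1.81 in spleen and -0.19 in bone marrow (adjusted p = 2.21e-06).

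Egr3 changed by -1.69 in spleen and 0.17 in bone marrow (adjusted p = 0.00527), Id3 by -1.16 in spleen and 0.10 in bone marrow (adjusted p = 0.0148), Ddit4 by 2.11 in spleen and 3.93 in bone marrow (adjusted p = 0.0148) and Kcne4 by 1.97 in spleen and 0.94 in bone marrow (adjusted p = 0.0213). Dusp1, at 2.36 in spleen and 2.39 in bone marrow, Pik3ip1, at 1.79 in spleen and 1.79 in bone marrow, and Ankrd37, at 1.57 in spleen and 1.55 in bone marrow, were not shown to differ, with adjusted p of 0.988, 0.999 and 0.995. Without spleen reduced oxygen array 2 or 5, the number of genes that differed was 53 or 54.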

How the data were processed

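RNA of 16 spleen samples (8 reduced oxygen, 8 control) was measured on Affymetrix arrays of 45101 probe sets. The deposited values were intensities on a linear scale, from 6.54 to 37760 in spleen, made by the authors with RMA, per the submitters' processing notes, which also name limma; no software version or genome build is given in the sources used here. Log2 of the deposited intensity was taken here without further normalization. Of the probe sets, 34945 carried 1 gene symbol, 932 several and 9160 none; 64 were controls. Each of 18193 genes kept the 1-symbol probe set of highest spleen mean. A filter on dim genes, at the 30th percentile (log2 5.38), left 12735. The number of arrays limits the precision.

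Groups were compared with limma 3.58.1 in R 4.3.3 (lmFit, eBayes, two-sided, Benjamini-Hochberg over all genes tested, call at adjusted p under 0.05) on the 16 spleen arrays, and tissue differences as interaction contrasts over all 39 arrays. No covariate was used. The fits were tested on simulated data with known changes. The members and the 23 response and 16 marker lists (673 of 732 entries matched) were chosen with earlier results of these data known. The genes named were the 12 largest rises and 12 largest falls among called genes (predicted and clone names passed over), up to 3 called members of smallest p per list, the 4 genes of smallest p per tissue interaction, and Vegfa, Bnip3, Egln3, Angptl4, Ddit4, Hmox1, Hif1a, Slc2a1 and Pfkfb3 (99 genes). Other genes named were chosen after their values were seen, as were the gene families in the closing section. The alternatives covered probe set choice, filters, normalization, variance prior, an exact Wilcoxon test, replicate number, an erythroid covariate and leaving out each array; leaving out both arrays with pancreatic markers was added after seeing the data. Promoter windows came from RefSeq (GRCm38.p6).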

Additional observations from a re-analysis of the deposited data

Results flagged for a closer look

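Arrays were set against their own group of 8 by the gap between the most extreme array and its neighbour. Of 228 groups of values tested, 21 had an array standing apart, and chance alone gives about 1 in 20 groups. Reduced oxygen array 4 accounted for 15 of the 21, always as the lowest of its group. These were the log2 levels of Adm (7.53), Ankrd37 (7.10), Atf5 (7.26), Bbc3 (7.85), Bcl3 (6.81), Cxcr4 (10.59), Cxcr5 (7.93), Ddit4 (11.37), Icam1 (8.16), Mzb1 (9.98), Pfkfb3 (7.42), Traf1 (6.80) and Zfp36l2 (11.62), and the marker means of B cells (9.26) and T cells (7.62). The part of lymphocyte content in these low values was not tested.

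The other 6 lay on 5 arrays. Adm was lowest in control array 6 (6.93). Bnip3 was highest (9.39) and Tbx21 lowest (5.97) in reduced oxygen array 3, and Zbtb46 was highest in reduced oxygen array 1 (7.66). The pancreatic acinar marker mean was highest in reduced oxygen array 2 (10.35) and in control array 5 (12.81).

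The change differed between tissues, by the interaction test in limma, for 8 genes that led those comparisons. Spleen change minus liver change was -3.12 for Tcim, 4.52 for Arrdc3, -2.05 for Slc38a2 and -3.06 for Snhg3. Spleen change minus bone marrow change was -2.91 for Ccn1, 2.21 for Cebpd, -1.61 for Pcdh18 and 2.21 for Neto2.

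Probe sets with no gene symbol, which entered none of the comparisons above, also changed in the spleen: of 3818 bright enough to be tested, 405 were called higher (10.6%) and 794 lower (20.8%) under reduced oxygen by limma, beside 6.83% and 12.6% of the genes tested.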

How the results depend on the processing

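Under the alternatives run, no called change of a named gene turned its sign. Of the named genes not called, Ccn1 ranged from -0.067 to 0.56, Hif1a from -0.048 to 0.15 and Pfkfb3 from -0.0020 to 0.20. Over all called genes, the mean of a gene's probe sets kept call and direction for 1926 and gave the opposite sign for 65. Without probe sets whose names end in _x_at or _s_at, 2317 kept both and 21 had the opposite sign. Of the named genes' values under an alternative, 2875 stayed on their side of the threshold, 158 lost the call and 16 gained it. The setting that lost most calls was the fit within replicates 1 to 4, with 461 genes called (230 higher, 231 lower), where Il1r2 had an adjusted p of 0.0621, Mmp8 0.151, Egln3 0.184 and Apold1 0.0639 in limma; it holds 8 arrays. Within replicates 5 to 8, 3316 genes were called. Leaving out 1 array at a time gave 2102 to 2869 calls, 698 to 1026 higher and 1353 to 1867 lower. The difference from liver held 934 to 1415 genes and that from bone marrow 27 to 54 over the same fits. Without reduced oxygen array 2 or 5 the bone marrow count was 53 or 54, and the cause was not tested. The other counts over all genes stayed within 1.5 times of those reported, with 2178 by the exact Wilcoxon test, 2669 after a further quantile normalization and 2828 with the erythroid covariate.

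Same-numbered spleen samples of both groups did not deviate together (correlations of -0.48 to 0.31, 0 of 8 samples closest to their own number). These correlations cannot show whether equal numbers mark samples handled together, on which the labels are silent. With the replicate number as a block, 1960 genes were called, 696 higher and 1264 lower, of which 1895 shared gene and direction with the calls reported. With arrays of equal number and treatment in different tissues as a random block, an alternative chosen after seeing the data, 1527 genes differed from liver and 50 from bone marrow, and all 1115 and 35 reported were among them.

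The 16 arrays hold bulk tissue with no stated batch. A probe set is 1 readout of a gene. The probe sets of Cebpg, Itga4 and Ccn1 moved in different directions, and the second Egr3 probe set did not show the fall. Among other genes, dimmer probe sets of Plk2, Prf1 and Bcl2l2 did not show the change of the probe set used. Levels near the dim-gene limit of log2 5.38 are less certain, as for the means of Nfil3 (5.47), Rbm12b1 (5.69), Dnah2 (5.85) and Egln3 (5.92). The same holds for Pcdh18 under reduced oxygen.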

Other observations

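Gene families not described above, picked after their values were seen, showed further falls. Of 257 genes with a Zfp symbol, most of them zinc-finger proteins thought to bind DNA, 92 fell (35.8%) and 13 rose under reduced oxygen in limma, beside 12.6% and 6.83% of all genes. For 40 of the 257 every reduced oxygen array lay below every control array, beside 445 of 12735 genes tested (3.49%). The family's median change was -0.12, with -0.12 within replicates 1 to 4 and -0.19 within replicates 5 to 8. Of 8 Gimap genes, GTPases of lymphocyte survival, 5 fell and 0 rose, with a median change of -0.52, and the B cell and T cell marker means of reduced oxygen array 4 were also low. The part of lymphocyte content in these falls was not tested.

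Of 43 cytosolic ribosomal protein genes 1 rose and 1 fell, and of 40 proteasome subunit genes 1 rose and 0 fell. Of 6 Slfn genes, a family active in lymphocyte growth arrest, 2 rose and 0 fell, with a median change of 0.31.

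The neutrophil marker mean, low in spleen reduced oxygen arrays 1, 2 and 5, was also lowest in the liver arrays with those numbers. Liver reduced oxygen arrays 1, 2 and 5 stood at 5.23, 5.23 and 5.42, and arrays 3, 4, 6, 7 and 8 at 6.43, 5.72, 6.82, 6.31 and 6.40, against 5.20 to 5.36 in liver controls. The labels do not say whether equal numbers mark the same mouse. In bone marrow the mean was 13.23 to 13.36 under reduced oxygen and 13.18 to 13.42 in controls.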
